A study of Mus musculus with 18 samples.

Results

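The comparison was between cells after 14 h of estradiol and the untreated cells they came from, 3 arrays of each time out of the 18 arrays of a 6-point time course. The arrays were taken by their labels, A, B and C at each time. All of them hold RNA of the ER4 subclone of G1E, a mouse erythroid line made from embryonic stem cells in which Gata-1 had been disrupted. The subclone carries Gata-1-ER, a fusion of Gata-1 to the part of the estrogen receptor that binds estradiol. The 0 h group is therefore a cell that has the fusion and lacks hormone, and not a cell without the fusion. Both groups are 1 clone, estradiol-treated cells without the fusion were not among the arrays, nor were untreated cells kept for a further 14 h, so that effects of the hormone or of time in culture cannot be told apart from those of Gata-1-ER. The labels name the 3 samples of a time as biological replicates.

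Gata-1 is a zinc finger transcription factor that binds GATA words in DNA and is needed for red cell precursors to survive and mature. In maturing precursors it raises genes of heme, hemoglobin and the red cell membrane and replaces Gata-2 at sites that Gata-2 held in progenitors. Red cell precursors pass through several divisions on the way, during which they shut down growth programmes and become small before they leave the cell cycle.

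Values are signals as deposited, on a linear scale, each from a probe set, the group of short probes that reads a transcript on the array. Changes are log2 differences, 14 h minus 0 h, after 16 had been added to each signal, so that changes of dim genes are understated. Errors are standard errors (SE) of a limma model over all 18 arrays, and a probe set was called at a Benjamini-Hochberg adjusted p below 0.05. Within a time, arrays correlated at 0.968 to 0.971 at 0 h and at 0.953 to 0.966 at 14 h, the lowest being 14 h A with 14 h B. The brighter of 2 Gata1 probe sets read 201, 157 and 269 at 0 h and 334, 204 and 217 at 14 h (0.32, SE 0.21, adjusted p = 0.41), and the groups overlapped. The other, of uncertain specificity, read 132, 111 and 96.6 at 0 h and 129, 146 and 98.7 at 14 h (0.14, SE 0.18, adjusted p = 0.744), also with overlap. Whether they read the fusion, the disrupted gene or both is not given in the sources used here. Other markers of the erythroid line were bright at both times: Klf1, a zinc finger factor of red cells, read 1283, 1384 and 1240.5 at 0 h and 2935, 3316 and 3426 at 14 h, and Epor, the erythropoietin receptor, read 583, 569 and 602 at 0 h and 644, 660.2 and 577 at 14 h.

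After 14 h, transcripts of the cytokine receptor chain Csf2rb, of the heme enzyme Alas2 and of the skeletal protein Dmtn stood far above the untreated level, while the progenitor factors Lyl1, Gata2 and Myb stood far below. Of 12422 probe sets tested, 1655 were called (13.3%), 814 higher (6.55%) and 841 lower (6.77%). The median log2 change was 0.89 among those called higher and −0.96 among those called lower, and 0.01 over all probe sets. At least 2-fold changes numbered 332 up and 382 down, at least 4-fold changes 38 and 40, and at least 8-fold changes 13 and 9. The 3 arrays of 1 time lay beyond the 3 of the other in 1621 of the called probe sets, and in 26.8% of all probe sets. Counted by gene, with the brightest probe set for each, 660 of 8251 genes rose (8%) and 674 fell (8.17%). In total RNA of a whole culture, fewer cells that carry a transcript and less of it per cell cannot be told apart.

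**Figure D1:**
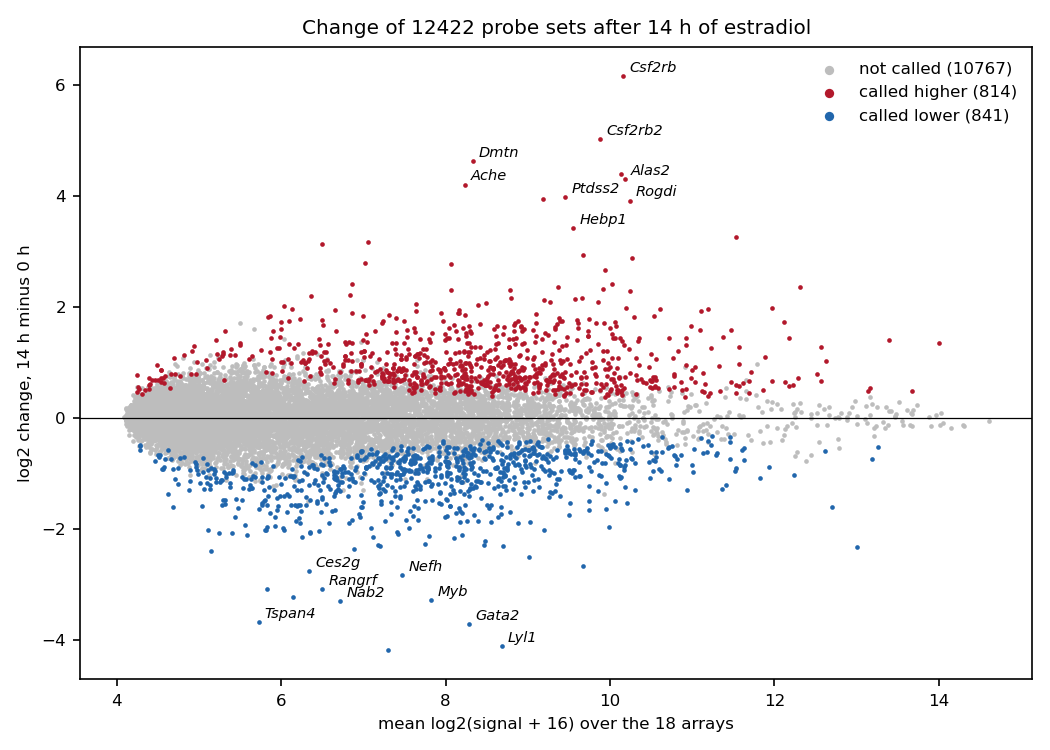
Log2 change, 14 h minus 0 h, against the mean log2(signal + 16) over the 18 arrays for each of 12422 probe sets, with the 814 called higher in red, the 841 called lower in blue and the rest in grey. The labelled points are the 8 largest rises and the 8 largest falls of the naming rule, from Csf2rb at 6.17 to Lyl1 at −4.10.

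The largest rise was that of Csf2rb, the beta chain shared by the receptors for interleukin 3, interleukin 5 and GM-CSF. Its signal was 55.2, 18 and 23.1 at 0 h and 4536, 3108 and 2351 at 14 h (6.17, SE 0.32, adjusted p = 1.57e-10). Csf2rb2, the beta chain used by the interleukin 3 receptor alone, read 79.6, 61.6 and 45.3 at 0 h and 3722, 1944 and 2063 at 14 h (5.02, SE 0.32, adjusted p = 3.09e-09). In both genes the dimmest 14 h array was far brighter than the brightest untreated array. The 2 genes are near copies, and reads of 1 by the probes of the other cannot be told apart here. A second, dim probe set of Csf2rb2 read means of 6.6 and 5.97 and was not called. Dmtn, dematin of the spectrin and actin skeleton, read 26.6, 30.3 and 24 at 0 h and 965, 1413 and 821 at 14 h (4.63, SE 0.21, adjusted p = 2.28e-11). Among called genes it alone went from below 50 on each 0 h array to above 200 on each 14 h array. Ache, which breaks down acetylcholine and sits on the red cell membrane, read 20.7, 9.8 and 51.8 at 0 h and 877, 691 and 596 at 14 h (4.20, SE 0.31, adjusted p = 1.79e-08). Ptdss2, which makes phosphatidylserine, read 105, 81.5 and 84.5 at 0 h and 1508, 1731 and 1521 at 14 h (3.97, SE 0.12, adjusted p = 7.33e-14), with the smallest SE of the 20 largest rises apart from Tmem14c. Groups did not overlap in any of these genes.

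Other large rises were in genes of several functions. Rogdi, a leucine zipper gene, rose by 3.92, Hebp1, a heme-binding protein, by 3.43 and Wdr92, a WD repeat gene, by 3.25. Btn1a1, a butyrophilin best known from milk fat globules, read 8.8, 7.2 and 6.1 at 0 h and 276, 144 and 176 at 14 h (3.17, SE 0.27). St3gal2 and St3gal5, which add sialic acid to glycolipids and glycoproteins, rose by 2.80 and 2.41. Pfkm, the muscle form of phosphofructokinase, rose by 2.36, Acp5, an acid phosphatase that contains iron, by 2.31, Necap2, of endocytic vesicles, by 2.32 and Tbc1d24, read by a probe set that may detect related transcripts, by 2.66. Each of the 20 largest rises and 20 largest falls stayed called under all 15 alternatives tried. These genes were picked for the size of their change in the same data. Of 289 called genes followed, 96 lost the call under at least 1 alternative.

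The 2 largest falls, of Lyl1 and Gata2, were in transcription factors of progenitor cells. Lyl1, a basic helix-loop-helix relative of Tal1, read 3690.2, 3478 and 3348 at 0 h and 174, 204 and 248 at 14 h (−4.10, SE 0.18, adjusted p = 1.32e-11). A second Lyl1 probe set fell from a mean of 1639 to 81.1 (−4.19, SE 0.29, adjusted p = 8.61e-09). Gata2, the Gata factor of stem and progenitor cells, read 2092, 1939.7 and 1696 at 0 h and 175, 127 and 123 at 14 h (−3.71, SE 0.23, adjusted p = 2.33e-09), while its second, dim probe set read means of 7.07 and 8.17 and was not called. Myb, which keeps progenitors dividing, read 1168, 1334 and 1537 at 0 h and 139, 103 and 149.8 at 14 h (−3.29, SE 0.29, adjusted p = 2.23e-07), on a probe set that may detect several transcripts. Kit, the receptor for stem cell factor, read 377, 486 and 478 at 0 h and 65.1, 81.4 and 87 at 14 h (−2.30, SE 0.36, adjusted p = 0.000152). Untreated arrays were above all 14 h arrays in each of these genes. Tspan4, a tetraspanin of the cell surface, read 318, 299.6 and 269 at 0 h and 11.7, 5.6 and 8.1 at 14 h (−3.68, SE 0.26, adjusted p = 9.32e-09), and was the single gene that went from above 200 on each 0 h array to below 50 on each 14 h array. Nab2, a corepressor of Egr factors, fell by 3.30 (SE 0.32), Ier2, an immediate early gene, by 2.29 and Zfp36l2, which promotes decay of messages with AU-rich elements, by 2.29, although its other probe sets, of uncertain specificity, were not called (−1.03 and −0.46). Rangrf, a cofactor of Ran, read 359.5, 181 and 269 at 0 h and 21.1, 18.7 and 11.4 at 14 h (−3.08, SE 0.36, adjusted p = 5.29e-06). Nefh, a neurofilament chain, changed by −2.83, Ces2g, a carboxylesterase, by −2.76, Bzw2, a regulator of start codon choice, by −2.51, Prmt1, the main arginine methyltransferase of the cell, by −2.32, Lgals9, the lectin galectin 9, by −2.28 and Slc9a3r1, a scaffold beneath the membrane, by −2.16. Mtm1, a lipid phosphatase, fell by 2.67 on a probe set that may detect related transcripts, whereas its other probe set read means of 40.3 and 51.4 (0.23, adjusted p = 0.589), so that the gene behind the fall is uncertain.

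**Figure D2:**
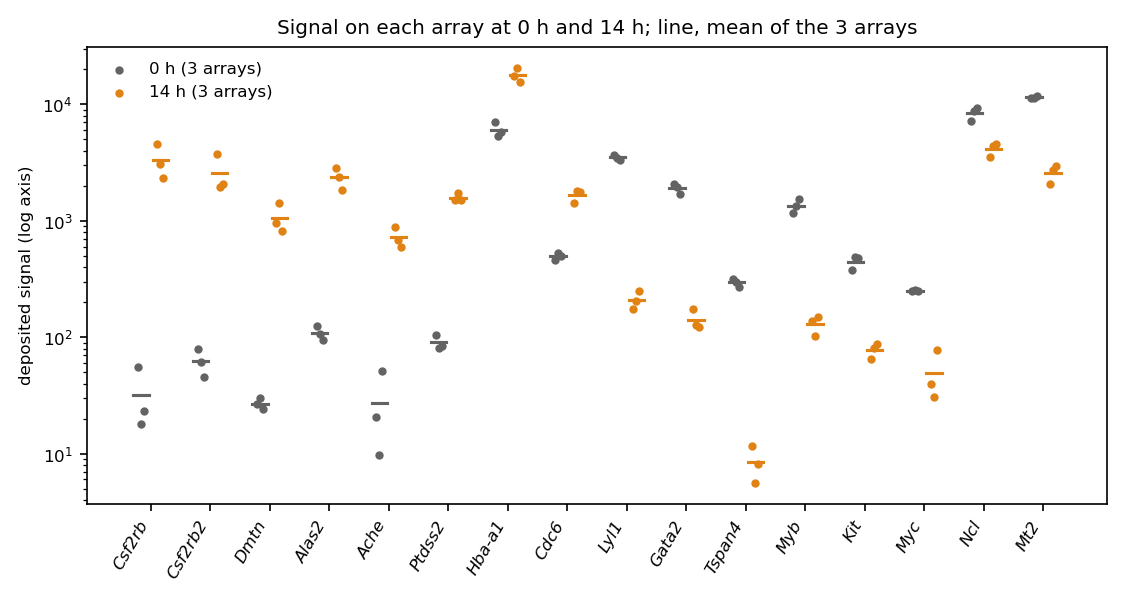
Deposited signal on a log axis on each of the 3 arrays at 0 h (grey) and at 14 h (orange) for 16 genes, with a line at the mean of the 3 arrays. The groups do not overlap in any of the 16 genes, and the distance is greatest for Csf2rb.

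Promoters of the 2 largest rises and the 2 largest falls that have an entry in the RefSeq promoter table (GRCm38.p6) are shown, because the comparison asks what changed once a factor that binds GATA words was switched on. Each runs from 250 bases before the start site to 50 after it, 5′ to 3′ on the gene's strand, with capitals for the motifs found. For Gata2 it is the first of 2 entries.
Csf2rb2, chr15:78305672-78305971, minus strand: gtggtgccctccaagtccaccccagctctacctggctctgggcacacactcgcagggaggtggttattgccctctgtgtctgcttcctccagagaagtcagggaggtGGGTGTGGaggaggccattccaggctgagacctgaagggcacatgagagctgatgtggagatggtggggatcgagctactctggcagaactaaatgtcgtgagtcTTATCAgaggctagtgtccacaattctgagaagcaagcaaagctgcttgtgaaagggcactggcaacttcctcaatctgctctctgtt
Alas2, chrX:150547167-150547466, plus strand: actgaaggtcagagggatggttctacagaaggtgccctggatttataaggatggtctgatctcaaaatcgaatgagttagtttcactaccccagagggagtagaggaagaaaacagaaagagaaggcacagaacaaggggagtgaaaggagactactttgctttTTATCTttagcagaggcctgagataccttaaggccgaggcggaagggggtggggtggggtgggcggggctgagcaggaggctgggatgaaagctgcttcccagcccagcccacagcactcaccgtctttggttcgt
Lyl1, chr8:84701207-84701506, plus strand: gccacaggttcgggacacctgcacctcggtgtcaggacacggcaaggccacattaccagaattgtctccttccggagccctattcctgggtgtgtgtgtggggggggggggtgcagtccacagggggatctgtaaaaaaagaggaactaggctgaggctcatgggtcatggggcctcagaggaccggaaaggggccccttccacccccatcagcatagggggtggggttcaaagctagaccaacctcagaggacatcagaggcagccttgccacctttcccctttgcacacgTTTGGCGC
Gata2, chr6:88193641-88193940, plus strand: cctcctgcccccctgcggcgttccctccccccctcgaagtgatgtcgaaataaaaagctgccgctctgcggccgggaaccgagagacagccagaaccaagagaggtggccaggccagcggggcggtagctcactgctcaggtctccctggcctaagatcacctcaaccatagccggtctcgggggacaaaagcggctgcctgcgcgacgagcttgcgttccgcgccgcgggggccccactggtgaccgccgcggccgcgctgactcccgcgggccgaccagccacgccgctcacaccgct
The motifs searched, on both strands, were AGATAA or TGATAA for Gata factors, CCACACCC for Kruppel-like factors, CACGTG, the E box of Myc, and TTTCGCGC or TTTGGCGC for E2f factors. The Csf2rb2 window held a Gata word, TTATCA, and a Kruppel-like word, GGGTGTGG. The Alas2 window held the Gata word TTATCT, and the Lyl1 window the E2f word TTTGGCGC. The Gata2 window held none of these letters. The next rise and the next fall with an entry, not printed, were Ache and Tspan4. The Ache window held the E box, CACGTG, and no Gata word, and the Tspan4 window held none of the motifs. Among genes with an entry, a Gata word lay in 12.5% of 550 promoters of genes called higher, 7.72% of 557 of genes called lower and 11.5% of all 6572. The E box lay in 14.9%, 13.5% and 9.95%, the Kruppel-like word in 3.09%, 3.59% and 4.08%, and the E2f words in 1.27%, 1.44% and 1.55%. Median GC content was 61.3% for genes called higher, 62.3% for genes called lower and 60% for all. Among the lists described below, Gata words lay in 6 of 14 promoters of red cell membrane genes, E2f words in 9 of 35 of DNA replication and the E box in 7 of 34 of ribosome biogenesis. In heme biosynthesis the E box lay in 3 of 9 promoters and Gata words in 2 of 9. The E box also lay in 5 of 35 promoters of DNA replication and 2 of 14 of red cell membrane genes. These shares are descriptions without a test, and a match is not a bound site.

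Enzymes of heme synthesis rose at 7 of the 10 steps and transporters measured, with a median log2 change of 1.52 (0.93 with the probe sets of a gene averaged). Against the 8% of all genes called higher, the share in the heme list was 70%, and 0 members were called lower. This list and those that follow were chosen with earlier results of these data known. Their shares are therefore descriptions and not tests. Alas2, the rate-limiting first enzyme in red cells, read 124, 107 and 93.9 at 0 h and 2869.5, 2370.3 and 1855 at 14 h (4.30, SE 0.22, adjusted p = 1.57e-10), on a probe set that may detect several transcripts. The middle steps followed: Alad read 1407, 1391 and 1257 at 0 h and 3483, 5022 and 4340.5 at 14 h (1.59, SE 0.20, adjusted p = 1.05e-05), Uros 285, 224 and 243 at 0 h and 830.4, 988 and 733 at 14 h (1.74, SE 0.14, adjusted p = 1.03e-07) and Urod 636, 596 and 599 at 0 h and 1589.7, 1889 and 1555 at 14 h (1.45, SE 0.15, adjusted p = 1.56e-06). Ppox, the next to last enzyme, rose by 1.66 and Abcb10, a transporter of the mitochondrial inner membrane, by 2.41. Alas1, the housekeeping counterpart of Alas2, was also higher, at 155, 152 and 188 at 0 h and 307, 385 and 285 at 14 h (0.98, SE 0.20, adjusted p = 0.00223). Arrays of the 2 times did not overlap for any of these enzymes. Fech, which inserts the iron, was read by a dim probe set at 38.7, 39.4 and 22.6 at 0 h and 47.3, 17.5 and 26.8 at 14 h (−0.14, SE 0.28, adjusted p = 0.841), and Cpox changed by −0.11 (adjusted p = 0.918). Tmem14c, which moves a heme precursor into the mitochondrion, read 1669, 1512 and 1479.7 at 0 h and 8428, 8686 and 7799 at 14 h (2.37, SE 0.11, adjusted p = 4.46e-11).

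Adult globins were higher at 14 h than before. Hba-a1, alpha globin, read 7034, 5307 and 5842 at 0 h and 17554, 20654 and 15548 at 14 h (1.41, SE 0.16, adjusted p = 4.55e-06), and Hbb-b2, a beta globin, read 1747, 1399 and 1159.6 at 0 h and 5785, 5952 and 4965 at 14 h (1.97, SE 0.18, adjusted p = 2.24e-07). No 14 h array was below any 0 h array for either gene. The globin genes of a cluster are near copies, and which of them a probe set reads is uncertain. The embryonic globins Hba-x, Hbb-bh1 and Hbb-y had log2 changes of 0.84, 1.04 and 0.69, none of them called. Of 10 genes for iron and heme handling, Hebp1 alone was called, a share of 10% against the 8% of all genes called higher. Tfrc, the transferrin receptor that brings in iron, read 1568, 930.4 and 1221 at 0 h and 3161, 1926 and 2308 at 14 h (0.92, SE 0.31, adjusted p = 0.0591). It missed the threshold in this fit and passed it under 7 of the 15 alternatives, with an adjusted p of 0.0102 to 0.0444 in those.

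Membrane and skeleton genes divided into 8 that rose and 11 that were not called, out of 19 measured (42.1% higher, against 8% of all genes). The median was 0.21 (0.12 without 0 h C), and 1 member was called lower with the compared times alone. Besides Dmtn and Ache, Tspan33, a tetraspanin of erythroid progenitors, read 345, 341 and 369.6 at 0 h and 1569.5, 1488 and 1428 at 14 h (2.09, SE 0.12, adjusted p = 8.37e-10). Mpp1, the p55 adaptor of the junctional complex, rose by 1.59, Ank1, erythroid ankyrin, by 1.43, and Add1, alpha adducin, by 1.44. Slc4a1, the band 3 anion exchanger, read 102, 55.8 and 42.8 at 0 h and 287, 393 and 177 at 14 h (1.89, SE 0.37, adjusted p = 0.0015). The groups did not overlap, and the 14 h arrays of Slc4a1 spread more than those of Tspan33. Epb42, protein 4.2, Rhag, the Rh-associated glycoprotein, and Aqp1, aquaporin 1, were not called (−0.12, 0.21 and −0.15).

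Among 20 erythroid transcription factors and partners, 8 rose (40%, against 8% of all genes) and 0 fell, with a median of 0.43. With a gene's probe sets averaged 2 members were called lower, and without 14 h A 1 was. Zfpm1, the Gata-1 cofactor Fog-1, read 1756, 1668 and 2254 at 0 h and 5387, 5273 and 5445 at 14 h (1.44, SE 0.15, adjusted p = 1.26e-06). Klf1, given above, rose by 1.26 (SE 0.11). Bach1, a repressor released from DNA by heme, read 57.6, 51.3 and 5.2 at 0 h and 309.9, 304 and 276 at 14 h (2.77, SE 0.36, adjusted p = 2.05e-05), with 0 h C far below the other untreated arrays. Its second probe set rose from a mean of 10.6 to 85 (1.77, SE 0.43, adjusted p = 0.00793). Mafk, a small Maf partner of Bach1 and Nfe2, rose by 1.60, Nfe2l2, the antioxidant factor Nrf2, by 0.95, Gfi1b, a repressor of the erythroid and megakaryocyte lines, by 0.76, Foxo3, a forkhead factor of late precursors, by 0.89, and Lmo2, a bridge in Tal1 complexes, by 0.73. Each of the 8 stayed called under all 15 alternatives. Tal1 itself changed by −0.51 and Nfe2 by 0.42, neither called.

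Of 19 stem and progenitor regulators, 9 fell (47.4%, against 8.17% of all genes) and 0 rose, although 1 was called higher without 14 h B. The median was −0.52 (−0.81 with a constant of 1, −0.24 with a constant of 64 and −1.10 with the dimmest probe sets left out). Lyl1, Gata2, Myb and Kit are given above. Cbfb, the partner of Runx factors, read 1614, 1519.8 and 1275 at 0 h and 917, 630.3 and 680.4 at 14 h (−1.05, SE 0.16, adjusted p = 0.000164), and Cbfa2t3, the corepressor Eto2, read 423, 300.4 and 329 at 0 h and 149, 167 and 118 at 14 h (−1.16, SE 0.18, adjusted p = 0.000134). Both groups of 3 were apart for each gene. Runx1 (0.73), Meis1 (0.43) and Cd34 (0.02) were not called.

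Myc, the growth factor response gene that drives ribosome production, read 251, 252 and 248 at 0 h and 39.8, 30.9 and 78.4 at 14 h (−2.08, SE 0.27, adjusted p = 1.94e-05). Among its relatives, which compete for the partner Max, Mnt fell by 1.59 and Mxd3 by 1.57, whereas Mxd1 was higher, with 3.6, 4.1 and 3.4 at 0 h and 80.2, 41 and 81.8 at 14 h (2.01, SE 0.32, adjusted p = 0.000181). Max was not called (0.45, adjusted p = 0.159). The 4 calls among 11 members were thus 3 falls (27.3%, against 8.17% of all genes) and 1 rise (9.09%, against 8%).

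Genes that build ribosomes had the lowest median of the 36 lists. Of 39 measured members, 26 fell (66.7%, against 8.17% of all genes), 0 rose, and the median was −1.03. Rrs1, an assembly factor of the large subunit, read 744, 940.3 and 844 at 0 h and 186, 218 and 275 at 14 h (−1.86, SE 0.20, adjusted p = 2.54e-06). Tcof1, treacle, which helps RNA polymerase I transcribe ribosomal RNA, read 730.2, 601 and 675 at 0 h and 232, 236 and 250 at 14 h (−1.41, SE 0.16, adjusted p = 3.19e-06). All 14 h arrays were below all untreated arrays for these and the following genes. Nip7, of 60S assembly, fell by 1.47, Nop58 and Gar1, core proteins of the small nucleolar particles that modify ribosomal RNA, by 1.77 and 1.65, and Ddx21, a nucleolar RNA helicase, by 1.68. The abundant nucleolar proteins Ncl and Npm1 fell as well: Ncl read 7234, 8810.1 and 9255 at 0 h and 3508, 4390.5 and 4555 at 14 h (−1.03, SE 0.14, adjusted p = 4.67e-05), and Npm1 changed by −0.89 (SE 0.15). The count lay between 23 and 28 under the alternatives. By contrast, of the 32 proteins of the finished cytosolic ribosome that were measured, 0 were called in either direction, with a median of 0.03, whose sign turned without 0 h A or 0 h C, and changes from −0.63 to 0.75. In the list of finished ribosome proteins 2 members were called higher with the dimmest probe sets left out, and 2 with probe sets averaged. The difference between the 2 lists was not tested.

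Other growth genes fell in part. Among the genes named in the lists, Ank1, Dck, Nop58, Srm, Srsf3, Psma3, Cct3, Plk1, Prdx2, Tfrc, Cpox and Rhag are also read by probe sets of uncertain specificity. In the Ran and nuclear transport list 10 of 27 fell (37%, against 8.17% of all genes) and 0 rose, with a median of −0.42 (−0.22 without 14 h A, −0.24 with probe sets averaged): Rcc1, the exchange factor that loads Ran, read 512, 580.1 and 510.1 at 0 h and 151, 169 and 165 at 14 h (−1.62, SE 0.21, adjusted p = 1.99e-05), and the importins Ipo5 and Kpnb1 changed by −1.49 and −1.03. Kpnb1 was 1 of 3 genes with probe sets called in opposite directions. In the same list 1 member was called higher with probe sets averaged, and 1 without 0 h C. In the splicing list 13 of 40 fell (32.5%), with a median of −0.43. Among them were Prpf8, the core of the spliceosome (−1.05, SE 0.13, adjusted p = 8.89e-06), and the splicing factor Srsf3 (−1.13). That count was 7 without 14 h A and 8 with median scaling. In the list of translation factors and tRNA synthetases 11 of 41 fell (26.8%) and 1 rose (2.44%), with a median of −0.16 (−0.26 without 0 h A, −0.10 without 14 h A). Eif4ebp1, which holds back the cap-binding factor, fell by 1.36 and Eif1a, of start site scanning, by 1.19, whereas Aars, the alanine tRNA synthetase, rose by 0.74. The 11 falls were 7 without 14 h A and 7 with median scaling. Of 25 genes for nucleotides, 1-carbon units and polyamines, 7 fell (28%) and 3 rose (12%; 1 gene with median scaling): Gart, a 3-step enzyme of purine synthesis, read 1051, 1199 and 1209 at 0 h and 255, 356 and 395 at 14 h (−1.79, SE 0.22, adjusted p = 1.1e-05), Srm, spermidine synthase, changed by −1.90, and Dck, which salvages deoxycytidine, by 1.23.

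**Figure D3:**
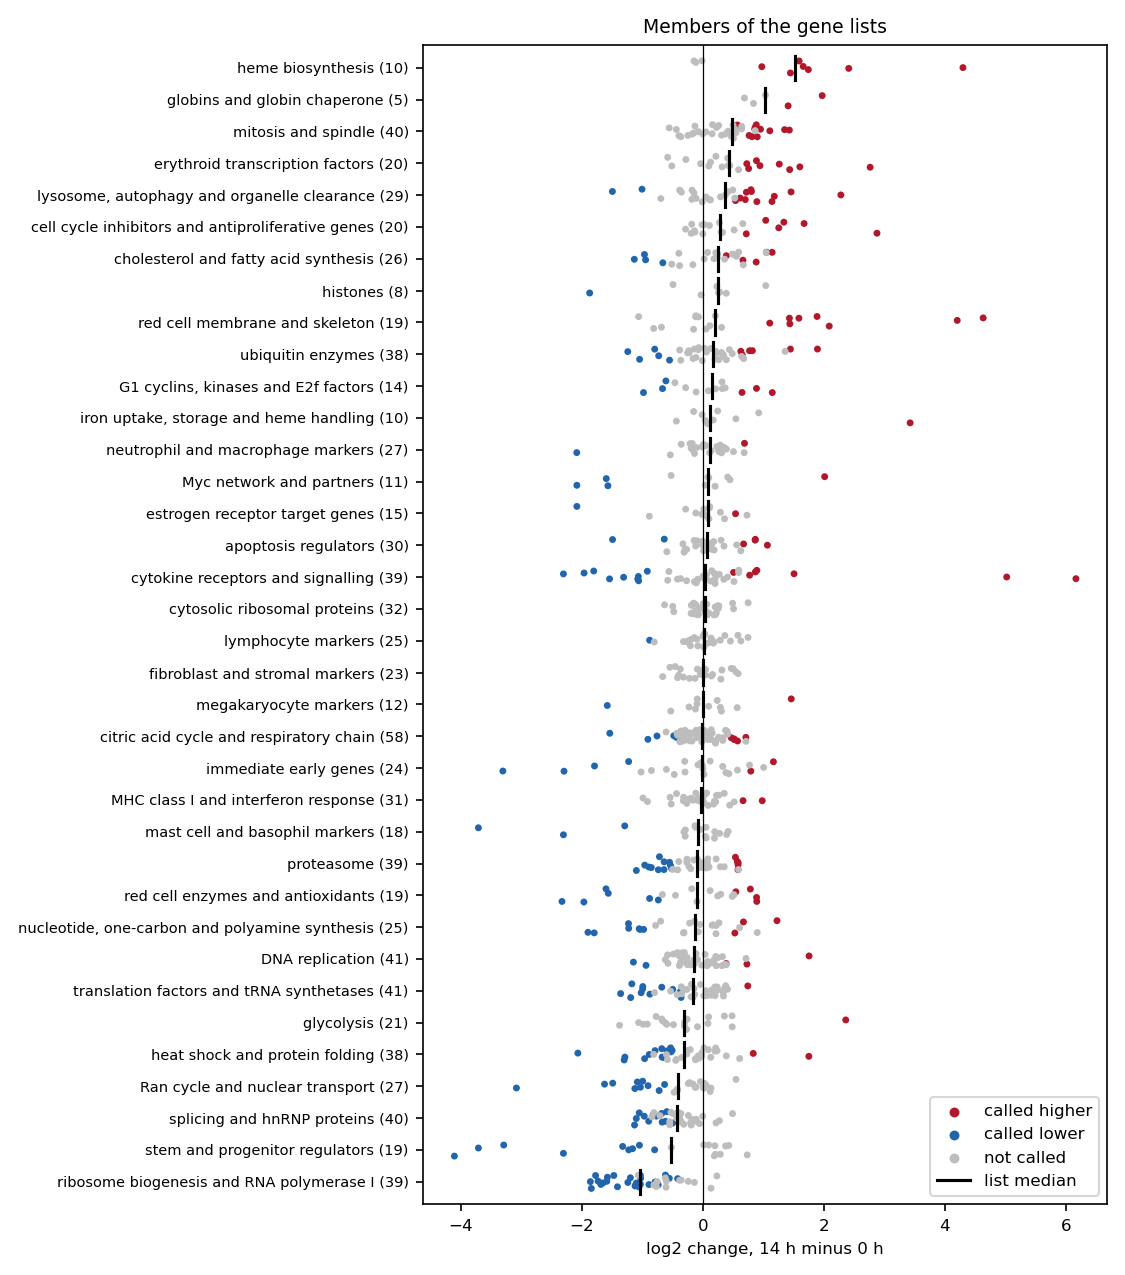
Log2 change, 14 h minus 0 h, of each measured member of 36 gene lists, with calls in red (higher) and blue (lower), members not called in grey and a bar at the list median; the number measured is in brackets. The lists run from heme biosynthesis (median 1.52) to ribosome biogenesis (−1.03), and cytosolic ribosomal proteins hold grey points only.

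A minority of mitosis genes were called higher. In the list of mitosis and spindle genes, 13 of 40 were called higher (32.5%, against 8% of all genes) and 0 lower. The change was positive in 30 of the 40, called or not, and the median was 0.49. Cenpa, the histone of centromeres, read 266, 243 and 236 at 0 h and 668, 628 and 588 at 14 h (1.35, SE 0.19, adjusted p = 4.25e-05). Ccnb2, a cyclin that drives entry into mitosis, read 1928, 1579 and 1663 at 0 h and 3151, 3558 and 3813 at 14 h (0.95, SE 0.21, adjusted p = 0.00351), and Plk1, a mitotic kinase, read 495, 614 and 588 at 0 h and 914, 1024 and 936 at 14 h (0.77, SE 0.13, adjusted p = 0.000536). The 14 h arrays were above all untreated arrays for these genes. Pttg1, securin, rose by 0.86, Cdc25c, the phosphatase that activates the mitotic kinase, by 1.11, and Nusap1, a microtubule-binding protein, by 1.43, all on probe sets that may detect several transcripts. The count was 8 with median scaling, and 7 of the 13 members stayed called under every alternative. Cell number and division were not measured on these arrays.

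DNA replication genes were mostly not called: 3 of 41 rose (7.32%), 2 fell (4.88%) and the median was −0.14, with shares near those of all genes. The 3 became 1 with median scaling, and the median lay between −0.22 (without 0 h A) and −0.03 (without 14 h A) with 1 array left out. Cdc6, which loads the replicative helicase, read 457, 529.8 and 497 at 0 h and 1426, 1795 and 1779 at 14 h (1.76, SE 0.11, adjusted p = 3.09e-09), with no overlap. Pold2, a subunit of DNA polymerase delta, read 1044, 889 and 872 at 0 h and 298, 479.8 and 522 at 14 h (−1.15, SE 0.17, adjusted p = 9.29e-05), on a probe set of uncertain specificity, again with no overlap. Pcna, the sliding clamp, was not called (−0.58, adjusted p = 0.225).

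Regulators of the first gap phase moved both ways, with 3 of 14 higher and 3 lower (21.4% each, against 8% and 8.17% of all genes). The 3 lower became 1 with median scaling. Ccnd3, the D cyclin that acts in erythroid cells, read 849.8, 957 and 968 at 0 h and 2216, 2235 and 1784 at 14 h (1.15, SE 0.17, adjusted p = 0.000117), while Ccnd2 read 837, 656 and 637 at 0 h and 446, 316 and 291 at 14 h (−0.98, SE 0.18, adjusted p = 0.00103). The 2 D cyclins thus moved in opposite directions with no overlap of the groups in either. Ccne1, cyclin E1, rose by 0.89 and Cks2, a subunit of cyclin-dependent kinases, by 0.65. Of 20 cell cycle inhibitors and antiproliferative genes, 6 rose (30%, against 8% of all genes) and 0 fell, with a median of 0.29 (0.13 without 14 h B, 0.19 without 0 h B and 0.15 with a constant of 64). Btg2, an antiproliferative gene of the mRNA decay machinery, read 259, 259.6 and 356 at 0 h and 2932, 1986 and 1701 at 14 h (2.88, SE 0.22, adjusted p = 3.63e-08), and Cdkn2c, the inhibitor p18 of the D cyclin kinases, read 229.7, 201 and 259.7 at 0 h and 555, 677 and 521 at 14 h (1.34, SE 0.14, adjusted p = 1.2e-06). Gadd45g and Gadd45a, stress sensors, rose by 1.67 and 1.04. Cdkn1a, the inhibitor p21, was not called (−0.14).

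Lysosome and autophagy genes, which red cell precursors use to clear organelles, rose at 11 of 29 members (37.9%, against 8% of all genes). They fell at 2 (6.9%, against 8.17%), with a median of 0.38 (0.24 with a constant of 64). Ctsb, cathepsin B, read 312, 311 and 419 at 0 h and 1648, 1826 and 1566 at 14 h (2.28, SE 0.14, adjusted p = 2.67e-09). Map1lc3b, the LC3 protein of autophagosomes, read 448, 248 and 266 at 0 h and 781, 918 and 873 at 14 h (1.46, SE 0.18, adjusted p = 1.43e-05), and its relatives Gabarap and Gabarapl2 rose by 0.80 and 0.80. Lamp1, of the lysosomal membrane, rose by 0.72. No 14 h array was as dim as an untreated array for any of these. Ctse, cathepsin E, went the other way, at 1791, 1699.7 and 2046 at 0 h and 669.5, 606 and 769.6 at 14 h (−1.49, SE 0.19, adjusted p = 1.48e-05).

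Chaperones fell in part: 13 of 38 members of the heat shock and folding list were lower (34.2%, against 8.17% of all genes). Only 2 were higher (5.26%, against 8%), and the median was −0.31. Hspa9, the mitochondrial Hsp70, read 2023, 3188 and 2783 at 0 h and 898, 1348 and 1214 at 14 h (−1.30, SE 0.18, adjusted p = 3.54e-05), and Hspd1, its chaperonin partner, read 5076, 4959.5 and 4511 at 0 h and 1192, 3245 and 2273 at 14 h (−1.29, SE 0.29, adjusted p = 0.00482), with 14 h A lowest for both. Subunits Cct3, Cct4 and Cct8 of the cytosolic chaperonin changed by −0.64, −0.96 and −0.67. Ddit3, the stress factor Chop, rose by 1.75 (SE 0.18). The 13 falls were 7 without 0 h C and 8 without 14 h A. In the proteasome list 11 of 39 fell (28.2%) and 5 rose (12.8%). These numbers, however, ranged from 3 to 11 and from 1 to 6 under the alternatives. With array 14 h A left out they were 3 and 5, with 0 h A 4 and 3, with 0 h B 6 and 2, with 0 h C 5 and 3, with 14 h B 6 and 2, and with 14 h C 9 and 3. Only Psma3 (−0.96) and Psmd4 (0.58), subunits of the core and of the cap, stayed called under every alternative.

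The list of red cell enzymes and antioxidants moved both ways, 4 of 19 higher (21.1%, against 8% of all genes) and 6 lower (31.6%, against 8.17%). Its lowest change, −2.33, was that of Mt2, a metal-binding protein described again below, so the falls are not all of enzymes. Car1, carbonic anhydrase 1, read 3629, 3499.7 and 3682 at 0 h and 830, 937 and 1202 at 14 h (−1.96, SE 0.18, adjusted p = 3.53e-07), and Gsr, glutathione reductase, changed by −1.56. Prdx2, a peroxidase abundant in red cells, rose by 0.79 and Pklr, the red cell pyruvate kinase, by 0.89. The list's name therefore covers members with opposite changes, and its median of −0.09 had the other sign without 0 h C and with the dimmest probe sets left out. Of 21 glycolysis genes (1 higher, 4.76%, against 8% of all genes) Pfkm alone was called, while the median was −0.31. That median moved to −0.59 with array 14 h A left out, to −0.46 with array 0 h B left out and to −0.58 with a constant of 1. With the compared times alone 3 members were lower. Bpgm, which makes the red cell regulator of oxygen release, was not called (0.49).

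Cytokine receptors and signalling genes likewise moved both ways, 7 of 39 higher (17.9%) and 9 lower (23.1%); the 7 were 4 without 0 h B, 4 without 14 h C and 4 with the compared times alone. Apart from Csf2rb and Csf2rb2, the members with the smallest p were falls: Ptpn6, the phosphatase Shp-1, read 168, 184 and 233 at 0 h and 37.9, 45.5 and 47.5 at 14 h (−1.80, SE 0.25, adjusted p = 4.35e-05) on a probe set that may detect several transcripts, Akt1, a survival kinase, changed by −1.06 and Socs2, a feedback inhibitor, by −1.31. Among 30 apoptosis regulators 4 rose (13.3%) and 2 fell (6.67%), near the 8% and 8.17% of all genes; the 4 became 2 with any of the arrays 0 h B, 0 h C or 14 h A left out. Bid, a proapoptotic member of the Bcl-2 family, read 191, 196 and 187 at 0 h and 59, 60.6 and 51.6 at 14 h (−1.49, SE 0.25, adjusted p = 0.000357), Mcl1, which protects, changed by −0.64, and Apaf1, which activates caspases, by 0.87. Macroh2a1, a histone variant of silent chromatin, was the single call among 8 histone genes (12.5% lower, against 8.17% of all genes). It read 787, 726 and 849.5 at 0 h and 175, 220.1 and 226 at 14 h (−1.87, SE 0.16, adjusted p = 1.15e-07). In the list of ubiquitin enzymes 6 of 38 rose (15.8%, against 8% of all genes) and 5 fell (13.2%, against 8.17%), the 5 being 3 without 0 h A, 3 without 14 h A and 3 with the compared times alone. Cul4a, a ligase scaffold, rose by 1.45, Ube2l6, a conjugating enzyme for Isg15, by 1.90, and Usp1, a deubiquitinase, changed by −1.24. Among 26 genes of cholesterol and fatty acid synthesis 5 rose (19.2%) and 4 fell (15.4%), the 4 being 2 without 0 h B and 2 without 14 h B: Ebp, a sterol isomerase, rose by 1.15, while Dhcr7, the last sterol reductase, changed by −1.13 and Fasn, fatty acid synthase, by −0.96.

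Lists of other cell types were checked because the parent line is a progenitor. Of 12 megakaryocyte markers 7 were under 50 on all 6 arrays; Gp9, a chain of the platelet von Willebrand receptor, rose, with 30.9, 25.4 and 36 at 0 h and 131, 147 and 74.7 at 14 h (1.46, SE 0.26, adjusted p = 0.000571), and Nbeal2, needed for platelet granules, changed by −1.58. The calls of this list were 8.33% higher and 8.33% lower, near the 8% and 8.17% of all genes. The summed megakaryocyte signal was 382 to 476 at 0 h and 406 to 465 at 14 h. Of 18 mast cell and basophil markers 14 were under 50, including Cpa3 and Fcer1a, and the summed signal was 2467 to 2784 at 0 h and 386 to 612 at 14 h. The 3 that fell (16.7%, against 8.17% of all genes) were Gata2, Kit and Mcpt1, a mast cell protease (−1.29, on a probe set of related transcripts). Of these, the first 2 are also in the progenitor list. Markers of neutrophils and macrophages (1 of 27 higher, 1 lower, 3.7% each), lymphocytes (0 and 1 of 25, 4% lower) and fibroblasts (0 and 0 of 23) had summed signals in overlapping ranges at both times. Their shares of calls were below those of all genes. The part of these cell types in the results was not tested.

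The state at 14 h was then set between its neighbours in time. Against 0 h, 1.06% of probe sets were called at 3 h, 4.17% at 7 h (2.48% higher, 1.69% lower), 20.7% at 21 h and 26.7% at 30 h. From 7 h to 14 h, 289 probe sets were called (2.33%), 156 higher (1.26%) and 133 lower (1.07%), and from 14 h to 21 h 288 (2.32%), 117 higher (0.942%) and 171 lower (1.38%). Leaving out array 7 h A gave 183 calls in the first step, array 7 h C 157 and array 14 h A 140. In the second, leaving out array 14 h B gave 165, array 14 h C 119 and array 21 h A 152. Both steps share the 14 h arrays, so that their values are given side by side. Alas2 rose in both (7 h to 14 h 2.43, adjusted p = 1.21e-05; 14 h to 21 h 1.52, adjusted p = 0.000874), as did Slc4a1 (2.49, adjusted p = 0.000822; 3.01, adjusted p = 0.000165). Lyl1 fell in both, by 1.81 (adjusted p = 1.82e-05) and 0.92 (adjusted p = 0.00777), the second call being lost with array 14 h C left out (−0.78, adjusted p = 0.06). Dmtn rose into 14 h (1.98, adjusted p = 2.79e-05) and did not pass the test after it (0.63, adjusted p = 0.145), and Hba-a1 had the same pair of calls (1.51, adjusted p = 2.79e-05; 0.32, adjusted p = 0.4). Csf2rb, at 4.98 above untreated by 7 h, passed in neither step (1.18, adjusted p = 0.0649; 0.47, adjusted p = 0.569), nor did Tspan4 (−0.75, adjusted p = 0.176; −0.03, adjusted p = 0.984). Pfkm, at 2.60 by 7 h, had step changes of −0.24 and −0.22. Car1 fell in both steps (−1.80, adjusted p = 1.82e-05; −1.95, adjusted p = 1e-05).

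The lists differed in how they stood on either side of 14 h. Of all probe sets, 1.26% were called higher and 1.07% lower from 7 h to 14 h. From 14 h to 21 h the shares were 0.942% and 1.38%. The heme median over untreated cells went from 0.60 (7 h) through 1.52 (14 h) to 1.77 (21 h), with 6 of 10 members rising into 14 h (3 with the compared times alone) and 3 after it. Ribosome biogenesis had medians of −0.47, −1.03 and −1.57, and 10 of 39 members fell in each step. Into 14 h the count became 3 with array 7 h A left out, 5 with 7 h B, 6 with 7 h C and 3 with 14 h A. After 14 h it became 6 with array 14 h B left out, 5 with 14 h C and 5 with 21 h A. With the compared times alone the counts were 2 and 1, without the intensity trend the first was 5, and with median scaling the second was 6. The mitosis list stood at 0.27, 0.49 and 0.09, with no member called in the step into 14 h and 1 lower in the step after it. DNA replication stood at −0.10, −0.14 and −0.86: no member passed from 7 h to 14 h and 16 of 41 fell from 14 h to 21 h. That count became 10 with any of the arrays 14 h B, 14 h C or 21 h A left out, 8 with median scaling and 6 with the compared times alone. Pold2 was among the 16 (−2.44, adjusted p = 2.28e-07).

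**Figure D4:**
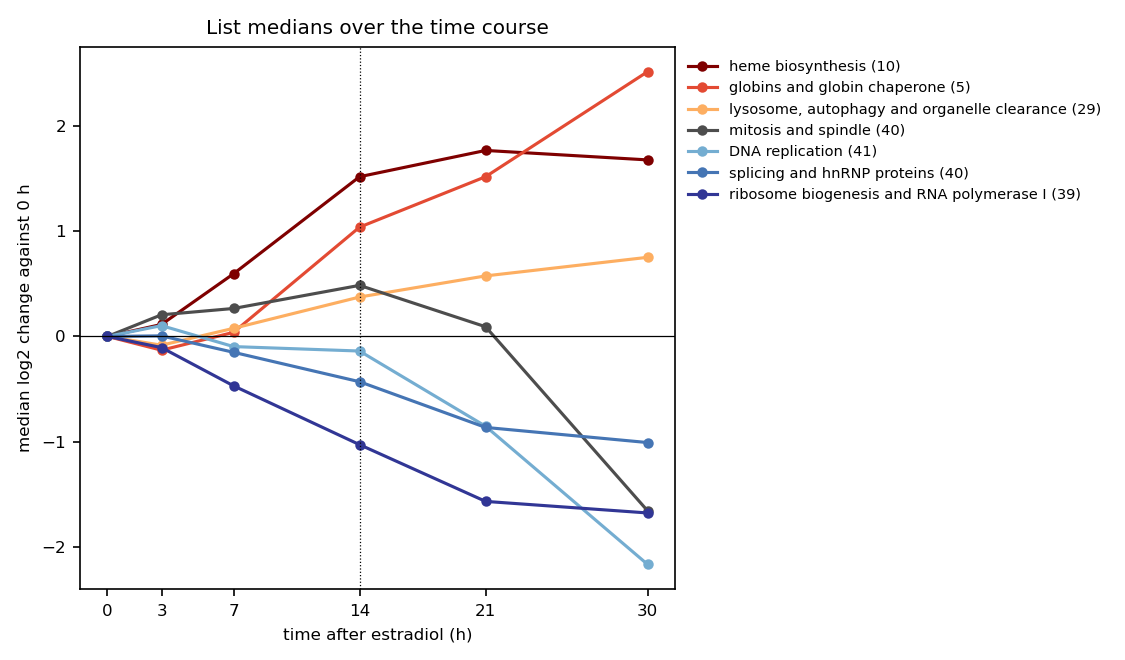
Median log2 change against 0 h of 7 gene lists at 3, 7, 14, 21 and 30 h of estradiol, with the number of members in brackets and a dotted line at 14 h. The mitosis median is highest at 14 h (0.49) and falls to −1.66 at 30 h, and the DNA replication median is −0.14 at 14 h and −2.17 at 30 h.

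Few genes stood apart at 14 h from the mean of 7 h and 21 h. The contrast called 6 probe sets (0.0483%), 4 higher (0.0322%) and 2 lower (0.0161%), and 761 had an unadjusted p below 0.05. With array 14 h A left out it called 10, and with 14 h B 1. The 2 lower ones were the metallothioneins Mt1 and Mt2, small proteins that bind zinc and copper. The untreated arrays of Mt2 read 11328, 11397 and 11876. At 7 h they read 6082, 6961 and 9879, at 14 h 2061, 2761 and 2936, and by 21 h 5967, 9331 and 8090.1. The 14 h arrays were below every array of the other 3 times. Its contrast was −1.54 (SE 0.19, adjusted p = 0.00254), and it was called under all 18 alternatives. Mt1 went through 5575, 5699 and 8076 for 7 h, then 2016, 3144 and 3357 for 14 h, then 5748, 6704 and 6978 for 21 h, with a contrast of −1.15 (SE 0.17, adjusted p = 0.0125). It followed the same course but lost its call when array 14 h A was left out (−0.97, adjusted p = 0.0605) or array 14 h B (−1.21, adjusted p = 0.0602). Mt1 also lost it with median scaling, without the intensity trend and with the compared times alone. Against untreated cells the 14 h changes were −2.33, SE 0.22, adjusted p = 5.56e-07 for Mt2 and −1.60, SE 0.20, adjusted p = 1.29e-05 for Mt1. Mean signals at 30 h were 17134 for Mt2 and 15448 for Mt1, above those at 0 h. The 2 genes are close in sequence, and signal from 1 on the probes of the other cannot be told apart here. Pold2 lay above the mean of its neighbours (0.95, SE 0.15, adjusted p = 0.0125), with means of 620 at 7 h, 433 at 14 h and 62.7 at 21 h. Leaving out array 14 h B (0.86, adjusted p = 0.0948) or array 14 h C (0.80, adjusted p = 0.119) ended that call. So did median scaling, leaving out the intensity trend and fitting the compared times alone.

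**Figure D5:**
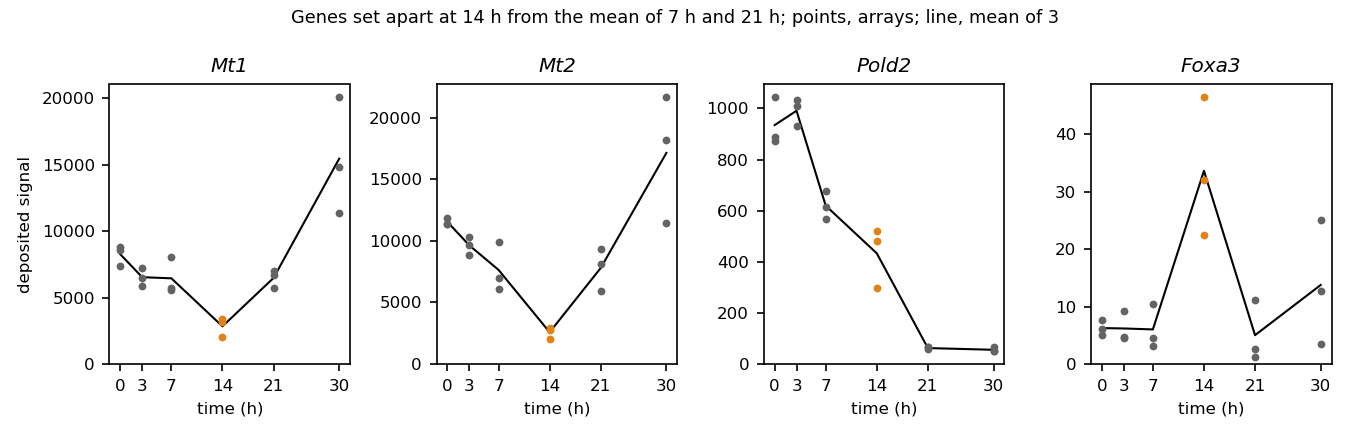
Deposited signal of Mt1, Mt2, Pold2 and Foxa3 on each array against time after estradiol, with the 14 h arrays in orange and a line through the means of 3 arrays. Mt1 and Mt2 are lowest at 14 h, Pold2 drops between 14 h and 21 h, and Foxa3 stays under 50 on all arrays.

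Called genes with the widest spread at 14 h were Trib3, Slc37a4, Ppif, Tsg101, Nfic and Smyd5. Ppif, cyclophilin D of the mitochondrion, read 422, 359.5 and 347 at 0 h and 29.4, 117 and 111 at 14 h (−2.10, SE 0.39, adjusted p = 0.000878), and Smyd5, a gene with SET and MYND domains, read 146, 148 and 166 at 0 h and 10.7, 74 and 24.5 at 14 h (−1.86, SE 0.34, adjusted p = 0.000758). In both the 14 h array A was the lowest and the groups did not overlap. The other probe sets of Smyd5 were not called (−0.42, −0.40 and −0.74). Slc37a4, the glucose-6-phosphate transporter, read 181, 198 and 379 at 0 h and 23.1, 121 and 94.9 at 14 h (−1.60), and was not called without 14 h A (−0.98, adjusted p = 0.0831) or 0 h C (−1.27, adjusted p = 0.0854). Nfic, a nuclear factor I gene, read 163, 118 and 149 at 0 h and 129, 27.8 and 22.6 at 14 h (−1.32), with 14 h A the array nearest to the untreated ones, and its second, dim probe set was not called (−0.01). Its adjusted p was 0.0556 with array 0 h A left out, 0.0507 with 0 h C, 0.0733 with 14 h B and 0.0911 with 14 h C. Trib3, a pseudokinase of the stress response, changed by −2.06, and leaving out array 0 h B gave an adjusted p of 0.0808, 0 h C 0.0807, 14 h A 0.117 and 14 h C 0.0995. Tsg101, of endosomal sorting, was dim, with a change of 1.14 and an adjusted p of 0.0978 with array 0 h A left out, 0.0757 with 0 h B, 0.105 with 0 h C, 0.2 with 14 h B and 0.136 with 14 h C.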

How the data were processed

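RNA of 18 samples was hybridised to 1 Affymetrix MG-U74Av2 array each. The deposited values are signal intensities, 1 per probe set and array, per the labels; the authors' summary algorithm, scaling target and detection calls are not given in the sources used here. Arrays have no read depth, so their number limits the precision. The 66 control probe sets were left out. A constant of 16 was added, log2 taken and the arrays quantile normalised; limma 3.58.1 in R 4.3.3 (lmFit, 1 mean per time over 18 arrays, eBayes with an intensity trend) gave 12 residual degrees of freedom. P-values were adjusted by Benjamini-Hochberg over 12422 probe sets and called below 0.05. The exact permutation of 3 against 3 arrays cannot go below 0.1, so gene tests rest on variance shared across probe sets. The scripts were tested on simulated data.

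Of the probe sets 10833 had 1 gene symbol in the platform table, 396 several and 1193 none; 10817 of the 10833 were found by gene number in the RefSeq table. Where several probe sets had 1 symbol, the brightest on average stood for the gene. A letter f, s, r, i or g before the final _at of a probe set name was taken to mark uncertain specificity. The members and lists were chosen with earlier results of these data known. Named genes were the 20 largest rises and 20 largest falls among called genes with no overlap of arrays, the 6 members of each list with the smallest p, uncalled members where the text asks for them, the called genes of the contrast with 7 h and 21 h, genes passing from below 50 to above 200 or back, and the 6 called genes with the widest spread at 14 h. Alas1, Slc4a1, Foxo3, Lmo2, Ncl and Npm1 were chosen after their values were seen. Promoters were matched by gene number for 6572 of 8251 genes, 1308 of which had more than 1 entry, the first being used. Alternatives were no quantile normalisation, median scaling, constants of 1 and 64, the third of probe sets that was dimmest over all arrays removed, no intensity trend, array weights, a block for the replicate letter, the compared times alone, and each array left out; lists were also read with a gene's probe sets averaged.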

Additional observations from a re-analysis of the deposited data

Results flagged for a closer look

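Signals at 14 h that a test set apart from the average of those at 7 h and 21 h were found for 6 probe sets, with limma's adjusted p over 12422. Mt2 (−1.54) and Mt1 (−1.15) were lower at 14 h than at both neighbours, as described above. Pold2 (0.95) was higher than the mean of its neighbours while its 14 h mean lay between theirs. Foxa3, a forkhead factor of liver and gut, had a contrast of 1.17 (SE 0.21, adjusted p = 0.0391), with 14 h arrays of 46.4, 32 and 22.5, against 10.4, 4.6 and 3.1 before them (7 h) and 11.2, 2.7 and 1.2 after them (21 h). It was dim on every array and its call was lost with any 1 of the 3 arrays of 14 h or of 7 h left out, or with 21 h B or 21 h C left out (adjusted p from 0.0528 to 0.128). A probe set with no gene symbol in the table used had a contrast of 0.81 (SE 0.13, adjusted p = 0.0125), with means of 428 at 7 h, 1863 at 14 h and 2774 at 21 h. Another, also without a symbol, had a contrast of 0.66 (SE 0.11, adjusted p = 0.0335) at signals of 16.9 or less in the mean. With median scaling, without the intensity trend and with the compared times alone, only Mt2 stayed called.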

How the results depend on the processing

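In the comparison of 14 h with 0 h, 1655 probe sets were called and the alternatives gave 1275 (without 14 h A) to 1765 (the dimmest probe sets left out), all within 1.5 times. Of 347 genes followed, 289 were called, 193 stayed called under all 15 alternatives, 96 lost the call under at least 1, and none of these called changes turned its sign. Of 576 list medians under the alternatives, 31 moved by more than 1 SD between arrays. A further 1 turned its sign although the reported median exceeded 1 SD. With this 1 included, 35, in 14 lists, had another sign than the reported median. These lists had medians of 0.25 or less in size, so the direction of such a median is not settled. The apoptosis median, 0.07, became −0.00707 without 14 h A and was at most 0.1 with another array left out. The smaller comparisons depended on the processing, and the cause was not tested. From 7 h to 14 h, 289 calls (156 higher, 133 lower) became 76 (47 and 29) with the compared times alone, and 140 to 245 (83 to 137 and 57 to 108) with 1 array left out. From 14 h to 21 h, 288 calls (117 and 171) became 172 (102 and 70) with median scaling, where 59.3% were higher against 40.6%, 180 (72 and 108) without the intensity trend, 37 (19 and 18) with the compared times alone, and 119 to 360 (47 to 121 and 72 to 239) with 1 array left out. For 14 h against the mean of 7 h and 21 h, 6 calls (4 and 2) became 1 (0 and 1) with median scaling, without the trend and with the compared times alone, 2 higher with a constant of 1 and 2 higher with the dimmest probe sets left out, and 1 to 10 (0 to 5 and 1 to 5) with 1 array left out. With the replicate letter as a block, 1737 probe sets were called at 14 h against 0 h (859 higher, 878 lower), 341 from 7 h to 14 h, 354 from 14 h to 21 h and 7 in the contrast; the samples share only a letter, and deviations of arrays with the same letter at 0 h and 14 h correlated at 0.05, −0.01 and 0.02. Dim signals limit the precision: the constant of 16 shrinks changes of genes near background.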
